A study of Mus musculus with 16 samples.

Results

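The ChIP-seq islands (continuous stretches of enriched signal) around 9 genes of cytokine and growth hormone signalling were examined in differentiating 3T3-L1 cells, a mouse line of preadipocytes: the transcription factors Stat3, Stat5a and Stat5b, the inhibitors Socs2, Socs3 and Cish, and the receptor genes Ghr, Lifr and Il6st. The genes were listed by name, out of 22380 protein-coding genes in the annotation, and every island that touched a gene body (mm9) or the 50 kb on either side of it was taken. The 16 deposited lists held 1072 such islands among 479799 islands in all, each counted once where the neighbouring windows of Stat5b, Stat5a and Stat3 overlap.

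All 16 libraries came from 3T3-L1 cells, sampled before or after the start of adipogenic induction with insulin, dexamethasone and a phosphodiesterase inhibitor (MDI). Histone H3 lysine 27 acetylation (H3K27ac) was profiled in cells carrying an empty retroviral vector and in cells carrying a SETD5-V5 retrovirus, at 0 h and 48 h, with replicates A and B in each of the 4 groups. The tagged protein was profiled with an antibody against V5 at 0 h and 6 h, also with replicates A and B, while H3K4me1 (0 h and 48 h) and endogenous SETD5 (0 h and 6 h) had 1 library per time and so no replicate check. SETD5-V5 was driven by a weak retroviral LTR promoter in a stably transduced line, so the SETD5 groups stand for that line, and its viral label was given for replicate B of the V5 libraries but left blank for replicate A. Both H3K4me1 libraries carried the SETD5 viral label although the study presents that mark in cells without the virus, so their vector is uncertain here. The study describes A and B as biological replicates but does not say whether they were separate cultures. The p-values measure the spread between these libraries, and how much of that spread is biological is not known here.

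Cytokines and growth hormone bind receptors that lack kinase activity of their own, Janus kinases attached to the receptor phosphorylate it, and STAT proteins dock there, are phosphorylated, pair up and move to the nucleus. Among the genes that STATs switch on are the SOCS family members Cish, Socs2 and Socs3, which bind the receptor or the kinase and damp the signal. In fat precursors, growth hormone acts through Ghr and the Stat5 proteins, and leukaemia inhibitory factor acts through Lifr paired with the gp130 chain encoded by Il6st, mainly upon Stat3. H3K27ac marks active promoters and enhancers, and H3K4me1 marks enhancers whether active or only primed.

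Each window is described by the number of islands, the length they cover in kb, and the rank of an island, given as the percentage of islands in its own list that have a higher score. The H3K27ac lists held 31292 to 39949 islands, those of the SETD5 line more (36604 to 39949) than those of the empty vector (31292 to 35460). The SETD5-V5 lists stood apart by time, with 16054 and 6666 islands at 0 h against 35573 and 27220 at 6 h, and the endogenous SETD5 lists held 2132 and 3293. An H3K27ac island lay at the promoters of the preadipocyte markers Dlk1, Pdgfra, Thy1 and Col1a1 and of the adipocyte regulators Pparg and Cebpa in 8 of 8 libraries, at those of the adipocyte genes Fabp4 and Plin1 in the 4 libraries of 48 h alone, at that of Adipoq in 2 libraries, both of the empty vector at 48 h, and at those of Alb, Myod1, Neurod1 and Ptprc in 0. Reads within islands were not listed, so a region missing from a list was below the caller's threshold, and the level of SETD5 itself could not be checked from these files.

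After 48 h in empty-vector cells, H3K27ac covered more of the window of 6 of the 9 genes: Cish, Socs2, Stat5b, Stat5a, Stat3 and Il6st. The other 3, Socs3, Ghr and Lifr, did not pass the test. Coverage was compared as log2(kb + 1) in limma, with the adjusted p (Benjamini-Hochberg) taken over the 17882 genes that had an island in at least 2 libraries, and the log2 scale understates the change of windows with little coverage. Over all those genes 24.0% were called higher and 13.3% lower, and the median log2 difference was 0.13 for all genes and 1.07 for the 9. In the SETD5 line the same 6 genes were called higher, beside 14.8% of all genes called higher and 11.7% lower, with medians of 0.791 for the 9 and 0 for all. No member was called lower in either line. The Stat3, Stat5a and Stat5b windows overlap and share islands, so these genes are not separate regions in this or later counts of members. A comparison of 2 libraries with 2 cannot reach a p below 0.333 in a permutation test, so each call rests on the spread that limma pools over genes.

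**Figure D1:**
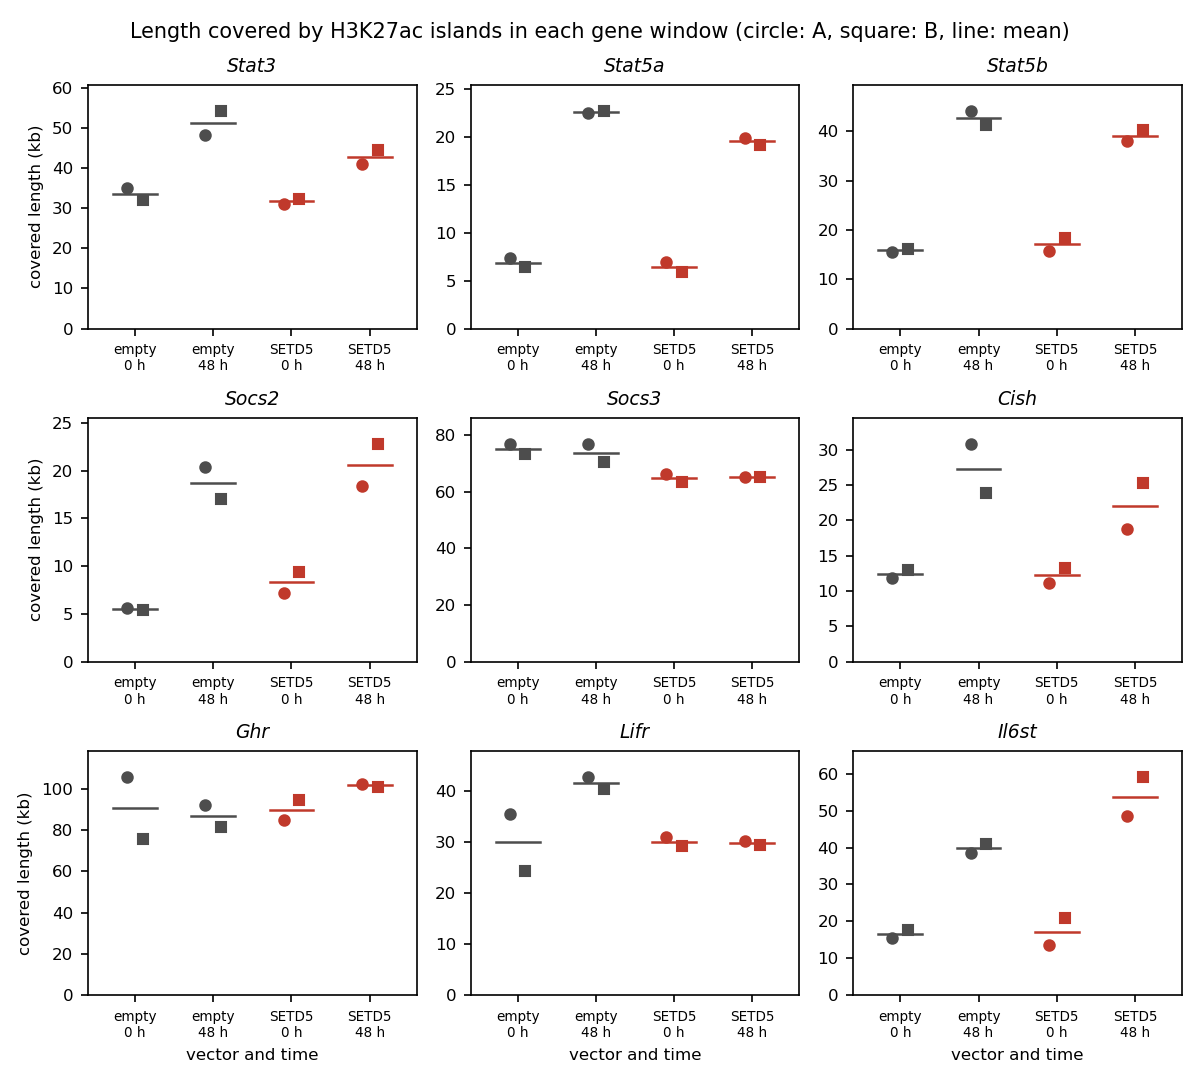
Length covered by H3K27ac islands (kb) in the window of each of the 9 genes, one point per library, for the empty vector and the SETD5 line at 0 h and 48 h. The 48 h points of Socs2, Stat5a, Stat5b and Il6st lie above the 0 h points in both lines, while those of Socs3 stay between 63.4 and 76.8 kb throughout.

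Stat5a and Stat5b encode the STATs that growth hormone and prolactin receptors act through, and they lie side by side on chromosome 11 (mm9; Stat5b at chr11:100642045-100712038 on the minus strand, Stat5a at chr11:100720665-100746483 on the plus strand). In the Stat5b window, H3K27ac covered 15.6 and 16.2 kb at 0 h and 44.2 and 41.2 kb at 48 h in empty-vector replicates A and B. With SETD5 the values were 15.8 and 18.4 kb at 0 h and 38.0 and 40.2 kb at 48 h. Both times stood well apart in both lines: the log2 difference was 1.37 (SE 0.11, adjusted p = 0.000226 by limma) with the empty vector and 1.15 (SE 0.11, adjusted p = 0.000762) with SETD5. The number of Stat5b islands went from 5 in each empty-vector replicate to 9 and 12.

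The Stat5a window gave 7.3 and 6.4 kb at 0 h and 22.5 and 22.7 kb at 48 h with the empty vector. In the SETD5 line it gave 6.9 and 5.9 kb at 0 h and 19.9 and 19.1 kb at 48 h. No 0 h value of Stat5a reached any 48 h value, and the log2 difference was 1.59 (SE 0.13, adjusted p = 0.000234 by limma) with the empty vector and 1.48 (SE 0.13, adjusted p = 0.00057) with SETD5. The island at the Stat5a promoter itself lengthened from 3.8 and 3.0 kb to 6.4 and 6.0 kb in empty-vector cells and moved up in rank, from 12.1% and 9.25% of islands above it to 1.95% and 1.77%. In SETD5 cells the Stat5a promoter island went from 3.4 and 3.2 kb to 5.0 and 3.8 kb. The share of islands above it went from 17.2% and 18.2% to 6.15% and 6.18%. At the Stat5b promoter the share of islands above it likewise went from 20.9% and 19.3% to 5.17% and 5.09% with the empty vector and from 20.2% and 24.9% to 6.99% and 9.35% with SETD5.

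Stat3, the main STAT of the gp130 cytokines, follows on the same stretch (chr11:100746412-100800854, minus strand). Its window held 35.2 and 32.0 kb at 0 h and 48.2 and 54.4 kb at 48 h with the empty vector, and 31.2 and 32.4 kb against 41.0 and 44.6 kb with SETD5. These differences were smaller than those of the Stat5 genes, at 0.60 (SE 0.10, adjusted p = 0.00435 by limma) and 0.42 (SE 0.10, adjusted p = 0.0251), but the libraries did not overlap between times. The strongest Stat3-window island, however, lay at the promoter of Ptrf, a neighbouring caveolae gene, and grew there from 11 and 12.6 kb to 27 and 28.2 kb with the empty vector, where at most 0.291% of islands scored higher, and stood at 13.2 and 17 kb at 48 h with SETD5. With islands at promoters of other genes left out, the Stat3 difference was -0.37 (adjusted p = 0.329) with the empty vector and 0.55 (adjusted p = 0.186) with SETD5. In the SETD5 line the Stat3 call was also lost when any of the 4 SETD5 libraries was left out (adjusted p of 0.0671 to 0.137). At the Stat3 promoter the island kept about its length with the empty vector (6.0 and 5.6 kb, then 6.6 and 7.0 kb). The share of islands above it went from 11.2% and 11% to 2.53% and 2.84%. In the SETD5 line that share went from 10.6% and 12.4% to 3.28% and 3.24%. Over the whole stretch of 258.8 kb that the 3 STAT windows span, coverage was 43.6 and 41.8 kb at 0 h and 77.8 and 76.4 kb at 48 h with the empty vector, and 40.6 and 45.0 kb against 64.0 and 70.6 kb with SETD5.

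Socs2, a feedback inhibitor best known for limiting growth hormone signalling, showed, with Stat5a, the largest log2 gain of the 9 in empty-vector cells (chr10:94847996-94879814, minus strand, with no other protein-coding gene in its window). Its window held 5.6 and 5.4 kb of H3K27ac at 0 h and 20.4 and 17 kb at 48 h in empty-vector cells. In SETD5 cells it held 7.2 and 9.4 kb at 0 h and 18.4 and 22.8 kb at 48 h. Every 48 h library exceeded every 0 h library, with a log2 difference of 1.59 (SE 0.17, adjusted p = 0.000674 by limma) for the empty vector and 1.22 (SE 0.17, adjusted p = 0.00316) for SETD5. The number of Socs2 islands was 2 in each empty-vector library at 0 h and 6 in each at 48 h, and 3 and 4 against 7 and 7 with SETD5. Within 10 kb of the gene alone, the SETD5 line no longer passed (0.46, adjusted p = 0.0855).

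Part of the new Socs2 coverage lay downstream of the gene. The promoter island also lengthened, from 3.8 and 3.6 kb to 7.8 and 5.0 kb with the empty vector. An island from 54.0 to 58.0 kb past the start (chr10:94821801-94825800, intergenic) was in both empty-vector lists at 48 h, in both SETD5 lists at 48 h and in both SETD5-V5 lists at 6 h, and in neither empty-vector list at 0 h nor the H3K4me1 lists. It had a rank of 28.0% and 23.9% with the empty vector and 19.7% and 12% with SETD5. A shorter Socs2 island from 74.4 to 77.0 kb shared this pattern in the H3K27ac and V5 lists, and another, at -28.8 to -27.6 kb (before the start), was missing from SETD5 replicate A. The 4.0 kb island at 54 kb held 2 matches to the STAT motif TTCNNNGAA, searched on both strands, and 5 to the C/EBP motif TTGCNNAA. Among the 186 islands of the same length gained genome-wide, 73.7% held at least 1 STAT match and 86.0% at least 1 C/EBP match, so a match alone does not set this island apart. The sequence is shown because this is the strongest island that a member gained; the capitals mark the STAT match that comes first on the plus strand, and the stretch is chr10:94821837-94821957.
Socs2 gained island: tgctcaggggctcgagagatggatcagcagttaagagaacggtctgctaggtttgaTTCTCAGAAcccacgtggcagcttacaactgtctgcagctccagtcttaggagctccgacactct

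Cish encodes the inhibitor that binds activated receptors in competition with Stat5 (chr9:107198357-107205115, plus strand). In its window the empty-vector libraries gave 11.8 and 13.0 kb at 0 h and 30.8 and 23.8 kb at 48 h, and the SETD5 libraries 11.2 and 13.2 kb against 18.8 and 25.2 kb. The times were apart in both lines, by 1.07 (SE 0.19, adjusted p = 0.00446 by limma) and 0.79 (SE 0.19, adjusted p = 0.0208). The Cish promoter island itself did not follow: it covered 3.6 and 2.8 kb at 0 h and 2.4 and 1.8 kb at 48 h with the empty vector, and the share of islands above it went from 27.1% and 29.9% to 35.6% and 35.3%. The coverage that was added lay mostly over Mapkapk3, a stress kinase gene upstream, and with islands at promoters of other genes left out the Cish differences were -0.14 (adjusted p = 0.734) and -0.75 (adjusted p = 0.0823). Within 10 kb of Cish they were -0.09 and -0.08. In the SETD5 line the Cish call was lost without SETD5 replicate A at 0 h, B at 0 h or B at 48 h (adjusted p of 0.0575 to 0.121).

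An island at -10.0 to -5.6 kb from the Cish start (chr9:107189001-107193400), at a Mapkapk3 promoter, was gained in both empty-vector lists by 48 h but was already in both SETD5 lists at 0 h. It held 1 match to each motif, which 83.3% (STAT) and 93.0% (C/EBP) of the 156 gained islands of that length held at least once. The stretch with its STAT match is chr9:107192739-107192859, plus strand, with the match in capitals. It is given because this island had the next highest score, after that of Socs2, among the gained islands in member windows.
Cish upstream island: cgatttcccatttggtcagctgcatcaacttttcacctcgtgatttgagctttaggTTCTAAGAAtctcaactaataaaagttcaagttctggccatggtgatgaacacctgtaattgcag

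Socs3, the inhibitor of gp130 and Stat3 signalling, had the densest acetylation of the 9 windows and no call in either line (chr11:117827393-117831361, minus strand). Empty-vector libraries gave 76.8 and 73.2 kb at 0 h and 76.8 and 70.4 kb at 48 h, or 67.7% to 73.9% of the window. SETD5 libraries gave 66.2 and 63.4 kb at 0 h and 65.0 and 65.2 kb at 48 h, all 4 below the 4 empty-vector values. The change over 48 h was -0.03 (95% interval -0.22 to 0.17, adjusted p = 0.83 by limma) with the empty vector and 0.01 (95% interval -0.19 to 0.20, adjusted p = 0.976) with SETD5. Islands at promoters of the neighbour Pgs1 held part of this coverage, and without islands at other genes' promoters the Socs3 differences were 0.35 (adjusted p = 0.033) and 0.46 (adjusted p = 0.0173). The island over the Socs3 promoter was 24.0 and 12.6 kb long at 0 h and 18.4 and 17.4 kb at 48 h with the empty vector, among the strongest of its list in each (0.228% to 0.741% of islands above it). With SETD5 it was 9.4 and 4.6 kb at 0 h, where 0.814% and 5.34% scored higher, and 10.2 and 14.4 kb at 48 h.

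Of the 8 members with a promoter sequence in the RefSeq table (GRCm38.p6, placed on mm9 by exact match), Socs3 alone held the STAT motif TTCNNNGAA in the 250 bases before a start, and 0 held the C/EBP motif TTGCNNAA. Over 32851 promoters of that table the shares were 7.02% and 9.56%. A match, or the lack of a match, describes only the letters of this window. The Socs3 match begins at position -154 from the start and is shown in capitals in the stretch outside annotated exons, chr11:117830766-117830930, minus strand.
Socs3 promoter: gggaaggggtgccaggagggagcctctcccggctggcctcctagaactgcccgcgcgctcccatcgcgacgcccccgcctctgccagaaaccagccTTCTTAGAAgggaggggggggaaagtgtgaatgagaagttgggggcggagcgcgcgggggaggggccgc

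A distal Socs3 island behaved differently from the promoter. The stretch 22.1 to 25.1 kb past the start (chr11:117805601-117808600, intergenic) is an island of empty-vector replicate A at 48 h. It was covered in both empty-vector lists at 48 h and in neither at 0 h. It was absent from all 4 SETD5 H3K27ac lists and was in both SETD5-V5 lists at 6 h. In replicate B, however, 0 islands of the Socs3 window counted as induced at 48 h or as absent with SETD5. The B island over this stretch thus also reached a 0 h island and a SETD5 48 h island of B outside the stretch. Among the 13 gained islands in member windows, this stretch alone was missing from both SETD5 lists at 48 h. It held 4 STAT matches and 0 C/EBP matches, where 65.7% and 81.0% of the 373 gained islands of the same length held at least 1. The stretch around the first match is chr11:117805918-117806038, plus strand, with the match in capitals.
Socs3 distal island: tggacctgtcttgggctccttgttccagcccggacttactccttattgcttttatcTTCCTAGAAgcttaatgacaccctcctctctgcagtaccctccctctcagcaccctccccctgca

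Il6st encodes gp130, the chain that receptors of the interleukin 6 family share (chr13:113265216-113297068, plus strand, with a RefSeq start further upstream at position 113254278). Its window held 15.4 and 17.6 kb at 0 h and 38.6 and 40.9 kb at 48 h with the empty vector. With SETD5 it held 13.6 and 20.8 kb at 0 h and 48.5 and 59.1 kb at 48 h. Both lines gained, by 1.22 (SE 0.20, adjusted p = 0.00341 by limma) and 1.61 (SE 0.20, adjusted p = 0.00175) on the log2 scale. By number of islands, in contrast, the Il6st differences were 0.29 (adjusted p = 0.605) and 0.50 (adjusted p = 0.41). The promoter island of Il6st, at the upstream start, grew from 5.0 and 4.6 kb to 11 and 6.8 kb with the empty vector and from 3.4 and 5.0 kb to 10.0 and 10.8 kb with SETD5. Its rank stayed near 5% with the empty vector (5.40% and 6.03%, then 5.19% and 4.41%) and went from 4.12% and 5.72% to 1.08% and 1.33% with SETD5. The 250 bases before that start, chr13:113254028-113254277 on the plus strand, lie outside annotated exons and held neither motif.
Il6st promoter: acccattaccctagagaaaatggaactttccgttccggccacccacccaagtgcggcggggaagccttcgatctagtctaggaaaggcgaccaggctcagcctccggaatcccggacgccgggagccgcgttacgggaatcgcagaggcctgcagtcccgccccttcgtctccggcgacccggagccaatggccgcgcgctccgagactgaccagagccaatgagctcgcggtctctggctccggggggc

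**Figure D2:**
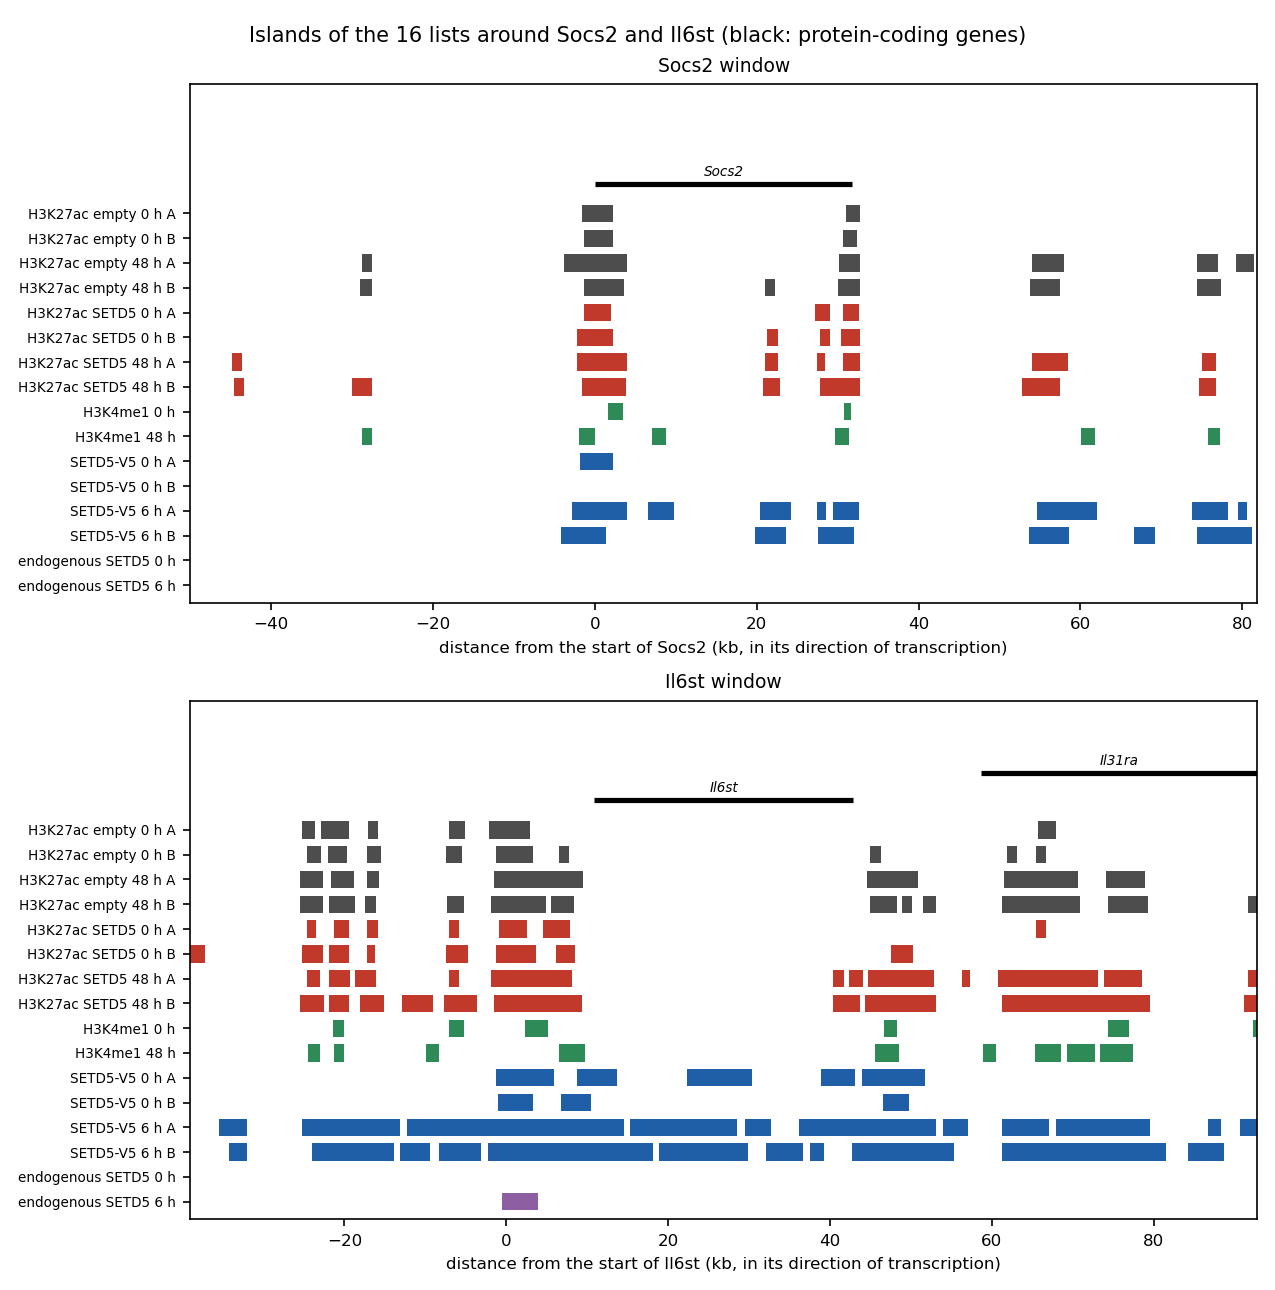
Islands in the Socs2 and Il6st windows by library, plotted by distance from the start (kb, positive in the direction of transcription), each bar an island drawn to scale. At Socs2 the islands near 54 and 75 kb appear in the 48 h lists of both lines, and at Il6st the bars past 60 kb are longest in the SETD5 lists at 48 h.

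Ghr, the growth hormone receptor gene, has by far the longest body of the 9 (chr15:3267760-3533492, minus strand, 265.7 kb). Empty-vector libraries gave 105.8 and 75.8 kb at 0 h and 92.2 and 81.6 kb at 48 h, so the times overlapped. SETD5 libraries gave 85.0 and 94.8 kb at 0 h and 102.4 and 101.2 kb at 48 h. Neither Ghr difference passed (-0.05, 95% interval -0.42 to 0.33, adjusted p = 0.857 by limma, and 0.18, 95% interval -0.20 to 0.56, adjusted p = 0.468). The Ghr promoter island was among the top 1.89% of its list in all 8 libraries. One Ghr island inside the gene, 37.8 to 40.2 kb past the start, was lost from both empty-vector lists by 48 h and was present in both SETD5 lists at 48 h, while 2 others, at 22.6 to 27 and 124.6 to 128.6 kb, were gained with the empty vector.

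Lifr encodes the receptor of leukaemia inhibitory factor (chr15:7079559-7147489, plus strand). Its window held 35.6 and 24.4 kb at 0 h and 42.8 and 40.4 kb at 48 h with the empty vector, and 31.0 and 29.2 kb against 30.2 and 29.4 kb with SETD5. With the empty vector both 48 h values lay above both 0 h values but the difference missed the threshold (0.48, 95% interval 0.09 to 0.88, adjusted p = 0.0597 by limma). It passed under 6 of the alternatives, among them the scaling to each library's covered length (0.43, adjusted p = 0.0229) and the fit without empty-vector replicate A at 0 h (0.75, adjusted p = 0.00548). With SETD5 the Lifr difference was -0.01 (95% interval -0.41 to 0.38, adjusted p = 0.977). An intergenic Lifr island at -39.8 to -36.6 kb from the start was present in all 4 lists at 0 h and absent from all 4 at 48 h.

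Whether SETD5 changed these windows was tested directly at each time and as the difference between the 2 time courses. At 0 h no member passed, beside 1.31% of all genes called higher and 0.895% lower by limma, and 2 members had an unadjusted p under 0.05: Socs2 at 0.51 (adjusted p = 0.22) and Socs3 at -0.21 (adjusted p = 0.286). At 48 h no member passed either, beside 6.58% of genes higher and 7.64% lower, and 2 had an unadjusted p under 0.05: Lifr at -0.47 (adjusted p = 0.113) and Stat3 at -0.25 (adjusted p = 0.154). For the difference of the time courses the counts were 0 members, 0 with an unadjusted p under 0.05, and 1.48% and 1.99% of all genes called higher and lower. A missed threshold does not show that the lines were alike: the 95% interval of the difference of the time courses was -0.96 to 0.21 for Socs2, -0.58 to 0.14 for Stat5b, -0.54 to 0.31 for Stat5a and -0.90 to 0.35 for Cish. The study gives more total reads for the H3K27ac libraries of the SETD5 line than for the matching empty-vector libraries. The lists of the SETD5 line also held more islands, with median lengths of 2000 to 2600 bp against 2200 to 2800 bp. The part of these differences in the comparison of the lines was not tested.

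At 48 h both SETD5 libraries lay above both empty-vector libraries for Ghr and Il6st and below both for Stat3, Stat5a, Stat5b, Socs3 and Lifr, so 2 of 9 and 5 of 9 members did not overlap between the lines. Over all genes 22.4% were above and 33.1% below in the same sense. Because the Stat3, Stat5a and Stat5b windows overlap, the members below are not all separate regions. The largest member differences in size were those of Lifr (-0.47, 95% interval -0.86 to -0.07) and Il6st (0.42, 95% interval -0.05 to 0.89, adjusted p = 0.213 by limma). They lay in opposite directions for receptor chains that work as a pair. When only the higher-scoring islands of each list (those above its median score) were kept, both passed: Il6st at 1.04 (adjusted p = 0.0179) and Lifr at -0.78 (adjusted p = 0.00984), and so did the difference of their time courses (1.31, adjusted p = 0.0391, and -1.10, adjusted p = 0.0152). Lifr also passed with scaling to covered length (-0.46, adjusted p = 0.0346) and without either empty-vector replicate at 0 h (adjusted p of 0.0248 and 0.025).

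**Figure D3:**
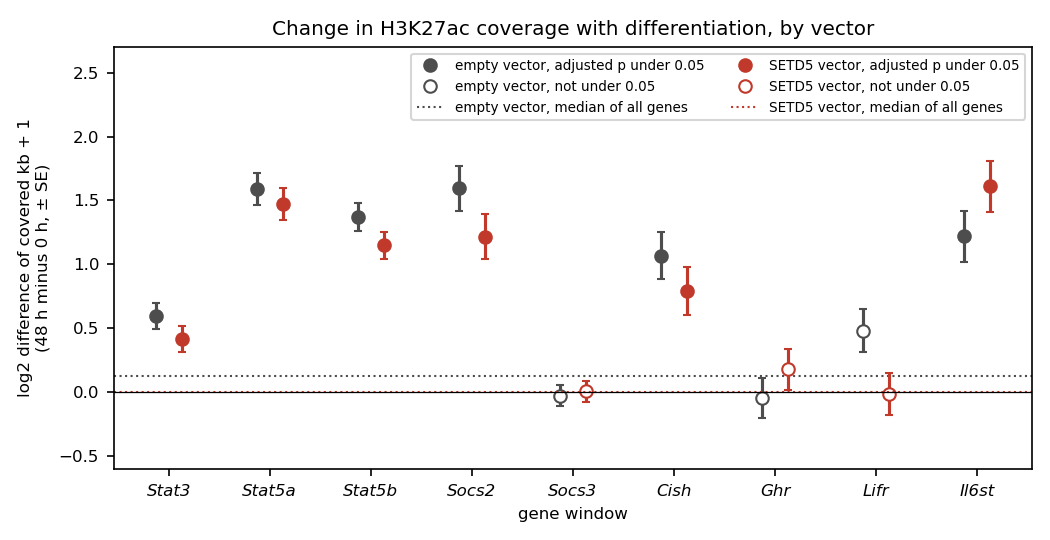
Log2 difference in H3K27ac coverage between 48 h and 0 h for each gene and line, with bars of ± SE from limma. Socs2, Stat5a, Stat5b, Cish, Stat3 and Il6st lie above 0 in both lines, and Lifr lies above 0 with the empty vector and at -0.01 with SETD5.

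Several distal islands differed between the lines in these windows. Beyond Il6st, over the neighbouring receptor gene Il31ra, an island from about 61 kb past the start was 9.2 and 9.6 kb long at 48 h with the empty vector, with 9.23% and 6.52% of islands above it, and 12.4 and 18.2 kb long with SETD5, with 3.18% and 2.87% above it. An intergenic Il6st stretch that starts near 44 kb held a 6.4 kb island in empty-vector replicate A, shorter pieces of 3.4, 1.2 and 1.6 kb in replicate B, and islands of 8.2 and 8.8 kb with SETD5. Over the end of Il6st itself, the stretch from 40.3 to about 44 kb past the start carried islands in both SETD5 lists at 48 h and in neither empty-vector list, and the promoter island was longer with SETD5 in replicate B (10.8 against 6.8 kb) but not in A (10.0 against 11 kb). At Lifr, the stretch from about 64 to 75 kb past the start was a single island of 11.4 and 11 kb with the empty vector at 48 h (23.3% and 24.2% of islands above it) and was broken into 4 pieces of 1.2 to 3.4 kb in each SETD5 list.

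**Figure D4:**
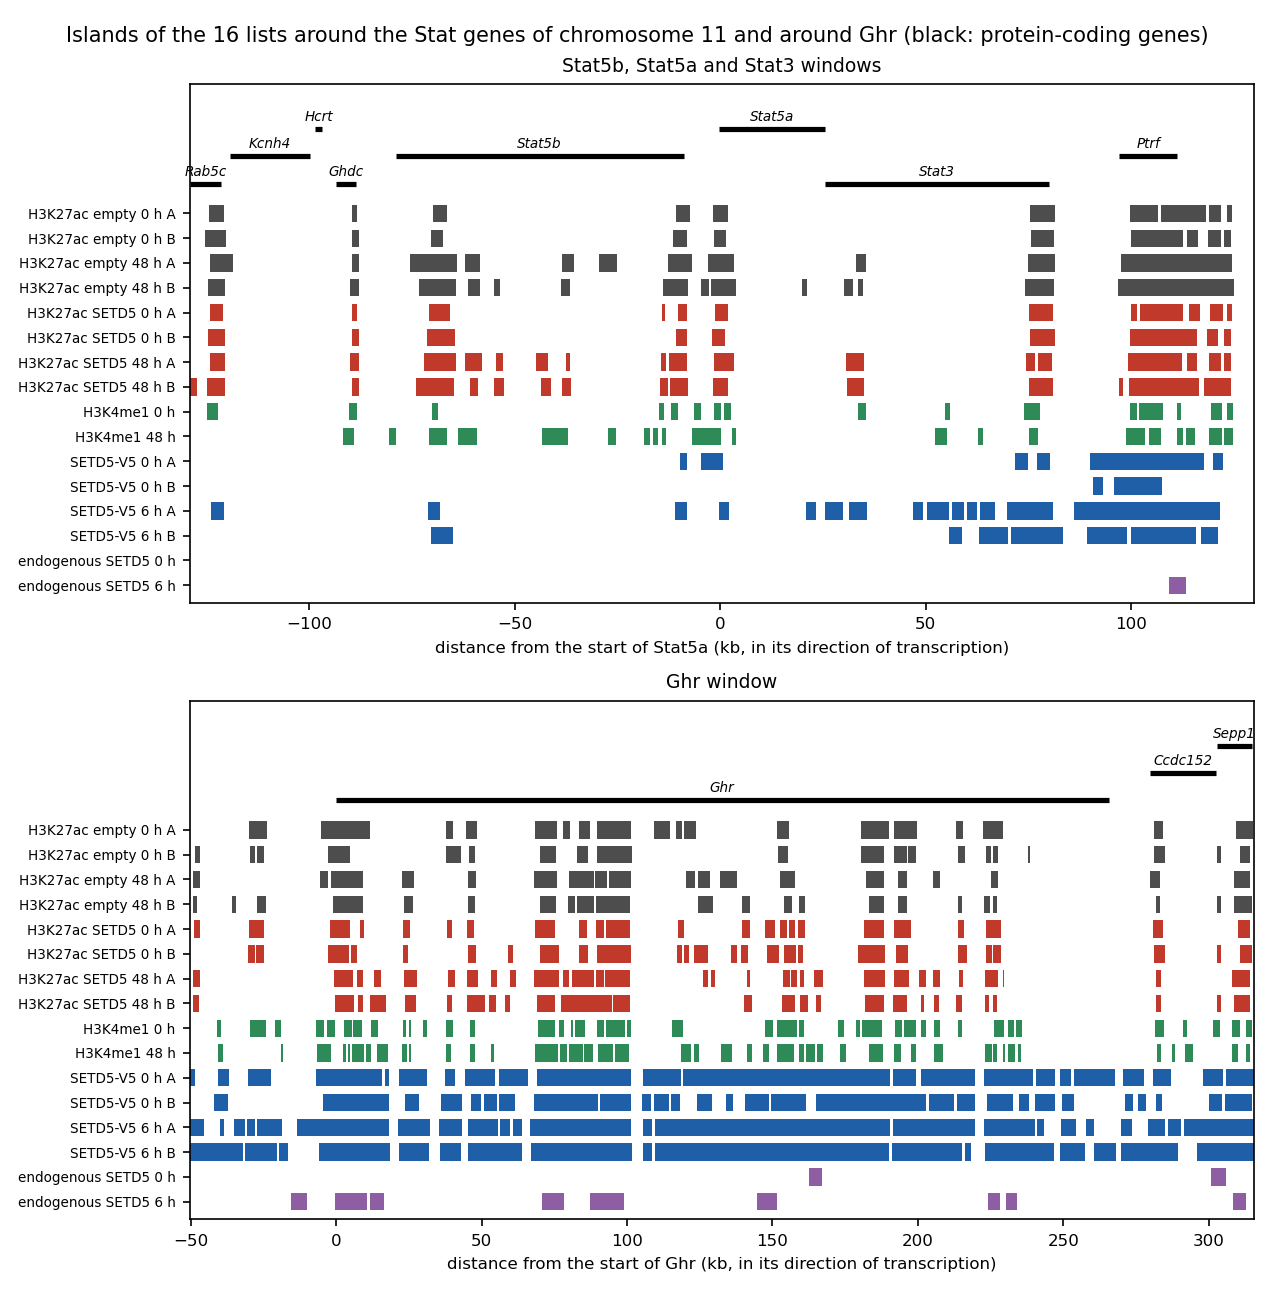
Islands across the shared Stat5b, Stat5a and Stat3 stretch and across the Ghr window by library, plotted by distance (kb), each bar an island drawn to scale. In the STAT stretch the longest H3K27ac bars are those of 27 and 28.2 kb near Ptrf at 48 h with the empty vector, and at Ghr the SETD5-V5 bars reach 81.0 kb.

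Island by island, 22 of the 69 islands in the member windows of empty-vector replicate A at 48 h (31.9%) and 25 of 77 in replicate B (32.5%) had no 0 h island of the same letter beneath them. The same share of the whole lists was 28.9% and 30.9%. Of these induced islands, 6 of 22 (27.3%) and 5 of 25 (20.0%) had no counterpart in the SETD5 list of the same letter at 48 h, against 36.3% and 30.7% of all induced islands. Socs2 had 4 induced among 6 islands in each letter, of which 2 in A and 0 in B were absent with SETD5. The Il6st window had 2 and 4 induced islands, none of them absent with SETD5, and Socs3 had 1 and 0.

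Gained islands were those of empty-vector replicate A at 48 h that overlapped a replicate B island at 48 h and none at 0 h. Lost ones followed the same rule with the times exchanged. In member windows lay 13 of 6517 gained islands and 2 of 7986 lost ones. Socs2 had 3 of the gained islands, Cish and Ghr 2 each, the shared STAT stretch 3, and Socs3, Lifr and Il6st 1 each. Of the 13, 11 were present in each SETD5 list at 48 h, where 69.5% and 72.4% of all gained islands were. The tagged protein was found at 8 and 7 of the 13 at 6 h (52.5% and 40.4% of all) and at 3 and 3 at 0 h (10.3% and 3.59%). H3K4me1 was listed at 4 of the 13 at 0 h (37.4% of all) and at 11 at 48 h (63.2%), and endogenous SETD5 at 0 of them at both times. Several gained islands sat at alternative starts inside member genes: in Stat5b at 26.5 to 29.5 kb, in Stat3 at 44.5 to 46.9 kb and in Lifr at 23.6 to 28.2 kb past the start.

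H3K4me1 coverage gave the same genes the largest ratios, with 1 library per time and hence no test. Socs2 had 2.6 kb at 0 h and 10.0 kb at 48 h, a ratio of 3.85. Il6st had 10.7 and 22.8 kb (2.14), Stat5b 16 and 33.0 kb (2.06), Stat5a 12.7 and 24.5 kb (1.93) and Cish 13.2 and 22.2 kb (1.68). These 5 of 9 were past a ratio of 1.5, beside 29.8% of all genes past it upwards and 13.3% past it downwards, with a median ratio of 1.19 over 14452 genes. Stat3 (1.28), Socs3 (1.09), Ghr (1.04) and Lifr (0.972) were not past it in either direction. With islands above the median score alone the number past it was also 5, but Cish fell short (1.47), Stat3 was past it (1.70), Stat5b and Stat5a reached 5.95 and 5.05, and Socs2 went from 0 to 3.4 kb. The Il6st promoter had no H3K4me1 island at either time, and that of Stat5b had one of 6.4 kb at 48 h alone.

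The tagged protein covered more of almost every member window at 6 h than at 0 h, as it did genome-wide. Both 6 h libraries lay above both 0 h libraries for 8 of 9 members, all but Stat5b, beside 66.8% of all genes above and 1.55% below. Cish alone passed the test, at 2.75 (SE 0.42, adjusted p = 0.0289 by limma), while 3 members had an unadjusted p under 0.05. Over all genes 19.0% were called higher and 0.108% lower. Cish had 0 kb, and so no spread, in the 0 h libraries, and it met the filter through the 6 h libraries alone. Its call thus rests on the group where it was high, and with no filter it did not pass (adjusted p = 0.19 by limma). At equal numbers of islands Cish was no longer among the genes tested and Stat5a alone passed (2.62, adjusted p = 0.0164 by limma). The median log2 difference of the 13838 genes tested was 1.90, and 2.10 over the 9 members. The whole lists grew between the times, and scaling to each library's covered length brought the median of all genes to 1.02. On that scale Cish stood at 2.29 (adjusted p = 0.0248), Socs2 at 3.07 and Stat5a at 2.17, and the sign turned for Stat3 (-0.24), Ghr (-1.33) and Lifr (-0.52), none of which passed on either scale. The calls depended on single libraries. Without replicate A at 0 h all 9 members passed, and without any other of the libraries 0 members and 0 genes in all passed in limma, where 97 to 4151 genes had an unadjusted p under 0.05.

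**Figure D5:**
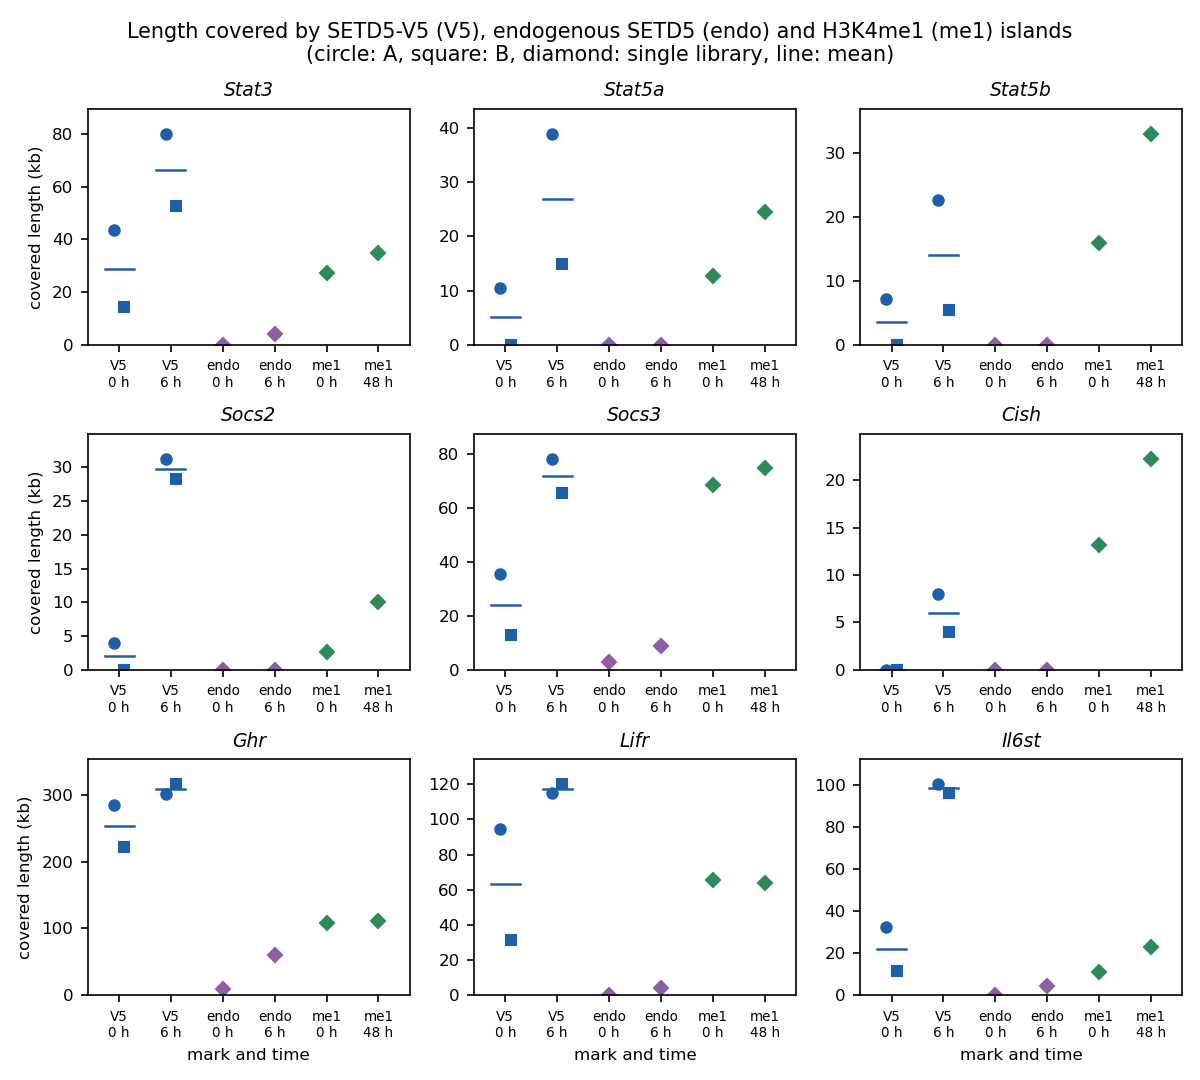
Length covered (kb) in each window by SETD5-V5, endogenous SETD5 and H3K4me1 islands, one point per library. SETD5-V5 points at 6 h lie above those at 0 h for every gene except Stat5b, and Ghr has the highest values of all, up to 316.7 kb.

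Among the inhibitors, the Cish window held 0 kb of SETD5-V5 in both 0 h libraries and 8.0 and 4.0 kb at 6 h, its promoter being covered in replicate A alone. The Socs2 window went from 4.0 and 0 kb to 31.2 and 28.2 kb, the widest relative change of the 9 (3.78, SE 1.05, adjusted p = 0.106 by limma). New Socs2 islands at 6 h covered the promoter and the stretches near 54 and 75 kb where H3K27ac was listed at 48 h. Socs3 had 35.6 and 12.8 kb at 0 h and 78.2 and 65.6 kb at 6 h, with its promoter covered in all 4 lists.

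The STAT windows were less even between replicates. Stat5b had 7.2 and 0 kb at 0 h and 22.6 and 5.4 kb at 6 h, and Stat5a 10.4 and 0 kb against 38.9 and 14.9 kb, so replicate B at 6 h lay closer to replicate A at 0 h than to its partner. Stat3 had 43.6 and 14.2 kb at 0 h and 80.0 and 52.6 kb at 6 h, in large part over Ptrf. The Stat5a and Stat5b promoters had no island in replicate B at either time.

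The receptor genes were covered widely. Ghr had 285.9 and 222.2 kb at 0 h and 301.5 and 316.7 kb at 6 h, or 60.8% to 86.6% of its window, with single islands of 81.0 and 80.6 kb at 6 h that few islands outranked (0.335% and 0.257%). Lifr had 94.8 and 31.6 kb against 115 and 120 kb. Il6st had 32.2 and 11.4 kb against 100.1 and 96.2 kb (2.29, SE 0.63, adjusted p = 0.103 by limma), and its promoter island grew to 26.8 and 20.4 kb.

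Endogenous SETD5, with 1 library per time, was listed in far fewer places: 3 islands over the 9 windows at 0 h and 13 at 6 h, with 0 in the Socs2, Cish, Stat5a and Stat5b windows. The Socs3 promoter carried an island at both times, of 2.8 kb and rank 64.7% at 0 h and of 8.8 kb and rank 6.53% at 6 h. Ghr had 2 islands (9.2 kb) at 0 h and 9 (60.6 kb) at 6 h, including 11 kb at its promoter. At 6 h the promoters of Lifr and Il6st also had islands, of 4.0 and 4.4 kb, in the lower ranks of the list (70.9% and 96.8%), and the Stat3 window had one of 4.2 kb at Ptrf.

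A wider list of 53 JAK-STAT genes puts these values in context. With the empty vector 12 of 53 were called higher and 8 lower at 48 h (median 0.23), where 24.0% and 13.3% of all genes were, and with SETD5 9 and 4 (median 0.07), where 14.8% and 11.7% were. By size of difference, the largest with the empty vector included the STAT inhibitors Pias1 (-1.34) and Pias3 (-1.05), the adaptor Sh2b2 (1.22), the coactivator Crebbp (1.06) and the repressor Bcl6 (1.06), all of which passed in limma, Crebbp with an adjusted p of 0.033 that it lost in 5 of the fits without 1 library. In the SETD5 line Il13ra1 (-1.67) and Stam2 (-1.12) passed, whereas Lepr (1.53, adjusted p = 0.0532), Il6 (1.06, adjusted p = 0.0711) and Csf3r (0.83, adjusted p = 0.0832) did not. Stam2 no longer passed without SETD5 replicate A or B at 0 h or B at 48 h (adjusted p of 0.0588 to 0.0711), and Lepr came to pass without either empty-vector library at 48 h (adjusted p of 0.00187 and 0.00194). Within 10 kb of the gene, Pias3 (-0.25) no longer passed with the empty vector, and neither did Il13ra1 (-0.04) with SETD5.

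Between the lines at 0 h, 0 of the 53 passed in limma and 13 had an unadjusted p under 0.05. The largest there were Prlr (1.72), Ifngr2 (1.18), Ifnar1 (0.90), Crebbp (0.76), Ptpn1 (-0.61) and Lif (-0.57). At 48 h 2 were higher and 4 lower with SETD5 (median -0.05), no larger a share than the 6.58% and 7.64% of all genes. Pias1 (1.19, adjusted p = 0.00466) and Pias3 (0.94, adjusted p = 0.021) were higher, Il13ra1 (-1.31, adjusted p = 0.0101) and Sh2b2 (-1.22, adjusted p = 0.0113) were lower, and Prlr (2.85, adjusted p = 0.13) and Ifngr2 (1.25, adjusted p = 0.0574) did not pass. Without either SETD5 library at 48 h Il13ra1 no longer passed, nor did Sh2b2 without replicate A of either vector at 48 h, or Pias3 without empty-vector replicate A or SETD5 replicate B at 48 h. Within 10 kb of the gene the Pias3 difference was 0.09 (adjusted p = 0.847), and it did not pass with no filter, by number of islands or at equal numbers of islands either. Prlr came to pass without empty-vector replicate A at 48 h (adjusted p = 0.0197) and Ifngr2 without replicate B (adjusted p = 0.0299). Pias1 was the only gene of the 53 whose time courses differed between the lines (0.99, SE 0.20, adjusted p = 0.0481), and it lost that call without any 1 of the 8 libraries. Larger in size but not called were Crebbp (-1.56), Sh2b2 (-1.15), Prlr (1.13) and Il13ra1 (-1.09), and that of Ep300 (-0.94), slightly smaller in size, was not called either. For the tagged protein 7 of 47 genes were called higher at 6 h and 0 lower (median 2.25), a smaller share than the 19.0% of all genes called higher. Osm (4.05), Tyk2 (3.79) and Il6 (3.05) passed and Cbl (3.44), Ptpn1 (3.20) and Il11 (3.13) did not. With no filter Osm, Tyk2 and Il6 did not pass either (adjusted p of 0.183 to 0.189 by limma), where 2 of 22380 genes were called higher. Osm also did not pass within 100 kb of the gene (adjusted p = 0.082), nor Tyk2 by number of islands (adjusted p = 0.218).

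Socs2, as the member with the largest change in empty-vector cells, was compared with every other gene over the 12 libraries of H3K27ac and SETD5-V5. The smallest Euclidean distances in log2 coverage were those of Slc43a3 (0.709), Fbxw7 (1.04), Ints6 (1.11), Smpd2 (1.13) and Purg (1.13). Slc43a3, for example, had 7.4 and 5.8 kb at 0 h and 18.5 and 16.4 kb at 48 h with the empty vector. This is a description over libraries that share cells and processing.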

How the data were processed

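ChIP-seq reads were aligned by the authors (ELAND or Bowtie2, mm9), and islands were called library by library, unpooled, using SICER or SICER2. Where the study gives island numbers for both callers, the lists used here have those of SICER2. The numbers of SETD5-V5 sites in the study's main text are those of SICER. Each deposited list gives chromosome, start, end and a score, the caller's own value, used here only to rank islands within a list. Use of input is not given in the sources used here. Island lengths were multiples of 200 bp, and the smallest gaps 600 bp (histone marks) and 800 bp (SETD5). No counts are listed, so depth within an island is unknown.

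Windows (gene body plus 50 kb) came from GENCODE on NCBIM37, which is mm9. Coverage was analysed as log2(kb + 1) with limma 3.58.1 (R 4.3.3, trended prior) over all protein-coding genes with an island in at least 2 libraries, with Benjamini-Hochberg adjustment over all of them and a threshold of 0.05. The fit over 8 H3K27ac libraries had 4 groups and that over 4 SETD5-V5 libraries had both times. Promoters span 1000 bases before to 100 after a start. Islands were shared from 1 bp of overlap. All 9 members were named, as were the 6 genes of the JAK-STAT list with the largest difference per comparison and the 5 genes most like the member that changed most. Some genes of the lists are not reported here. Members and lists were chosen with earlier results of these data known. Scripts were tested on simulated data and against bedtools 2.31.1. Alternatives changed the window, pseudocount, filter, measure, scaling, score threshold, island number and neighbouring promoters, left out each replicate, or used replicate letter as a block.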

Additional observations from a re-analysis of the deposited data

Results flagged for a closer look

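Pias1, an inhibitor of STAT proteins on the JAK-STAT list and not a member, was the gene whose change over 48 h differed between the lines by a direct test: the H3K27ac coverage of its window moved 0.99 more on the log2 scale in the SETD5 line than with the empty vector (SE 0.20, adjusted p = 0.0481 by limma), having fallen by 1.34 with the empty vector. The call was lost without any 1 of the 8 libraries (adjusted p of 0.0634 to 0.167). Pias1 also did not pass within 10 kb (1.16, adjusted p = 0.0616 by limma) or within 100 kb of the gene (0.46, adjusted p = 0.275). By number of islands its difference was 0.51 (adjusted p = 0.63). The call was lost as well with no filter, above the median score and without other genes' promoters. No group had the 4 or more libraries that a check for single outlying libraries needs.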

How the results depend on the processing

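Of 930 values of single members under an alternative, 881 kept their direction and their side of the threshold, 23 came to pass, 19 no longer passed and 7 reversed. Counting islands in place of length cut the members called over 48 h from 6 to 3 with the empty vector and from 6 to 2 with SETD5. Leaving out 1 library gave 6 to 7 and 4 to 6, the library left alone in its group being assumed to vary like the others. SETD5 against the empty vector at 48 h went from 0 to 1 (covered-length scaling, Lifr lower) or 2 (islands above the median score, Il6st higher and Lifr lower), and to 0 to 1 without 1 library (Lifr, without either empty-vector library at 0 h). The difference of time courses went from 0 to 2 above the median score. For SETD5-V5 the count of 1 became 0 within 10 kb, 0 with no filter and 0 above the median score, stayed 1 at equal numbers (Stat5a in place of Cish), and was 0 to 9 without 1 library (9 without replicate A at 0 h). The reversed differences over 48 h were those of Stat3 (-0.12 by number of islands, -0.37 without other genes' promoters), Socs3 (0.35 without them) and Cish (-0.0898 within 10 kb and -0.14 without them, or -0.0794 and -0.75 with SETD5). The cause was not tested.

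The induced share of 32.2% became 43.0% at 50% overlap, 30.1% above the median score and 35.8% at equal numbers of islands (letters 31.9% to 32.5%), and the share absent with SETD5, 23.6%, became 29.6% and 18.3% under the former 2 settings (letters 20.0% to 27.3%). Across genes, deviations of same-lettered libraries from their group means correlated weakly (-0.0345 to 0.118 for H3K27ac and 0.176 for SETD5-V5). Such a correlation leaves out a shift of a whole library. SETD5-V5 replicate A covered more than B at 0 h (85.6 against 35.3 Mb) and at 6 h (196.1 against 147.9 Mb). With the letter as a replicate block, SETD5-V5 calls over all genes went from 2645 to 3511. The members called were the same in number, 6, 6, 0, 0, 0 and 1. Of the JAK-STAT genes named, Ifngr2 came to pass between the lines at 48 h (adjusted p = 0.0418 by limma). The difference of the time courses of Pias1 no longer passed (adjusted p = 0.0719).

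Over all genes, equal numbers of islands moved the share of calls that were higher from 59.5% to 41.5% (SETD5 against empty vector at 0 h), 46.3% to 30.4% (at 48 h) and 99.4% to 73.5% (SETD5-V5). Calls over all genes ranged over the alternatives from 3395 to 8185 (6669 reported) and 2553 to 6034 (4738) for the time courses, 10 to 972 (395) and 481 to 3930 (2543) for the lines at 0 h and 48 h, 0 to 1509 (620) for the difference of time courses and 0 to 9223 (2645) for SETD5-V5. With 2 libraries a group and no read counts, small differences could not be seen.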
